A study of Rattus norvegicus with 12 samples.

Results

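RAB proteins are small GTPases that direct vesicle traffic, and their transcripts were followed in rat pituitary cells given gonadotropin-releasing hormone (GnRH) or vehicle. Members were taken by symbol: a probe set was kept when its only gene symbol was Rab, a number and optional letters and digits. The pattern matched 110 probe sets and 66 symbols, out of 14217 genes with 1 symbol on the array. Of these, 56 encode RAB GTPases. The other 10 (Rab11fip1, Rab11fip2, Rab11fip3, Rab11fip4, Rab11fip5, Rab3gap1, Rab3gap2, Rab3il1, Rab3ip and Rab5if) encode partners or regulators and are counted apart. Where a gene had several probe sets, the one with the highest mean log2(signal + 16) over the 12 arrays stood for it.

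The cells were primary cultures of the anterior pituitary from adult female Sprague-Dawley rats, ovariectomized for 2 weeks, with 13 to 15 glands pooled per experiment. Large cells, about 6% of the total, were sedimented out to enrich gonadotropes, the makers of luteinizing hormone (LH) and follicle-stimulating hormone. The labels give 40 to 60% LH-positive cells in that pool, so a large share of each culture was of other types. All groups were kept in medium with estradiol, kanamycin and charcoal-treated serum, and on culture day 3 wells were given vehicle medium or GnRH at 10 nM, for 40 min. RNA was amplified in 2 rounds and read on 12 rat expression arrays, 6 per agent, called vehicle 1 to 6 and GnRH 1 to 6 here. Samples 1 and 2 of each agent came from enrichment set I, 3 and 4 from set II, and 5 and 6 from set III, each set being a separate cell preparation. Values are scanner software signals, proportional to brightness, scaled to a common trimmed mean of 500, and differences are of log2(signal + 16), which understates changes of dim genes.

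A RAB protein is bound to a membrane by a lipid tail added by prenylation, and it cycles between an active form that holds GTP and an inactive form that holds GDP. Exchange factors switch it on, GTPase-activating proteins switch it off, and GDP dissociation inhibitors draw the inactive form off the membrane. Each RAB marks a particular compartment and recruits effectors that move, tether or fuse vesicles there. In endocrine cells RAB3 and RAB27 proteins act on the docking and release of hormone granules, while RAB1, RAB2 and RAB6 serve the early secretory path and RAB5, RAB7 and RAB11 serve endosomes.

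The upstream sequence of 5 members is shown because the results below turn on them: 3 differed between preparations, Rab1a had the widest vehicle range of log2(signal + 16), and Rab3a had the smallest p for a response that differed between preparations. Each line gives the 150 bases before the start of the gene in the RefSeq table of assembly GRCr8, 5′ to 3′ on the strand of the gene. Capitals mark the GC box, GGGCGG or its reverse complement CCGCCC.
Rab1a (chr14:98623527-98623676, plus strand): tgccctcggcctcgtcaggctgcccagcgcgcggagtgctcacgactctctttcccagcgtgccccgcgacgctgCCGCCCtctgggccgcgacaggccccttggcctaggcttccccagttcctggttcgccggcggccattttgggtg
Rab3a (chr16:18722274-18722423, minus strand): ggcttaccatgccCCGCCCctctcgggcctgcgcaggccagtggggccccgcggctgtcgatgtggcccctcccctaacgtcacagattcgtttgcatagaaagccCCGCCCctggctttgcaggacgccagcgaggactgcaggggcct
Rab6a (chr1:164369883-164370032, plus strand): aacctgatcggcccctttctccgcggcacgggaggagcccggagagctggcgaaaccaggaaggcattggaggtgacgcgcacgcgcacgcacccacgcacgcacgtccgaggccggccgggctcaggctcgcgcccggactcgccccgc
Rab8a (chr16:17709413-17709562, minus strand): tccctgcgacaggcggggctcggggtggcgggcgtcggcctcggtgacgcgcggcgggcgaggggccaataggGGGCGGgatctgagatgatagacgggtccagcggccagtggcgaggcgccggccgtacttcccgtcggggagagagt
Rab14 (chr3:38911685-38911834, minus strand): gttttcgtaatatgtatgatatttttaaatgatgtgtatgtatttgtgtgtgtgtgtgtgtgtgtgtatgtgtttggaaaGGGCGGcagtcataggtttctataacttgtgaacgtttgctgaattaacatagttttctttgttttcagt

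These starts are annotated starts, and the arrays do not measure where transcription began. In windows of 300 bases (250 before and 50 after the start), a promoter was held for 45 of the 56 GTPases. A GC box on either strand was present in 36 of these, which is 80.0%, against 33.1% of all 33469 promoters and 62.9% of the 8882 promoters of genes with a tested probe set. The median GC content was 63.7%, close to the 61.0% of the promoters of tested genes. The window at the annotated Rab14 start had 32.3% GC, the lowest of the 45, followed by Rab29 at 51.3%. Whether transcription of Rab14 begins there was not tested, so the window may not be its promoter. The window of Rab6a held no GC box. The TATA motif TATAAA was in 0 of 45 windows, against 7.21% of the promoters of tested genes. Motifs of factors that GnRH is known to induce or activate were also counted. The cAMP response element TGACGTCA was in 1 window (Rab25), or 2.22% against 3.25% of the promoters of tested genes, and the EGR motif GCGGGGGCG in 1 (Rab3d), or 2.22% against 5.39%. The AP-1 motif TGANTCA was in 4 (Rab27b, Rab34, Rab4b and Rab9a), or 8.89% against 4.76%. The E-box CACGTG was in 4 windows (Rab20, Rab21, Rab31 and Rab5a), against 9.66% of the promoters of tested genes. All motifs were read on both strands, and a GC box and an EGR motif can share bases.

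Some arrays stood apart before any RAB gene was considered. Bacterial hybridisation controls, added at fixed amounts, had a low signal (2264 to 11705) on vehicle 1, 2 and 5 and GnRH 1 and 2, and a high one (53482 to 320020) on the other 7. Set I therefore held only low spike-in arrays, set II only high ones, and set III held vehicle 5 among 3 high ones. The extreme was vehicle 3, whose signals had a median rank correlation of 0.376 with those of the remaining arrays (Spearman, across probe sets, which are not replicates). The summed signal of the 6 gonadotrope markers was 32142 to 99800 on the low arrays and 250480 to 494330 on the high ones, with Lhb and Cga far above the rest. The summed signal of the 4 somatotrope and lactotrope markers split likewise, at 36261 to 118470 and 381460 to 1169600. Gh1 and Prl dominated that sum and were abundant throughout, at 16159 and 18279 or more. Single markers need not follow the sums. Pou1f1 was higher on the low array vehicle 5 (1530) than on the high array vehicle 6 (1217), as was Gnrhr (249 and 74.5). The other markers of both sums were higher on vehicle 6. All 6 gonadotrope markers were tested, Lhb at 12563 to 152900, while Gnrhr, the GnRH receptor, fell below the background controls on 5 arrays. Markers of other cell types were dimmer for the most part, with Pomc of corticotropes at 34.2 to 1516 and Tshb of thyrotropes at 2596 to 24007. No marker was listed at 0. The log2 GAPDH 3′ to 5′ ratio, a sign of transcript length, was 4.48 to 5.45 in set I and 2.96 to 4.37 in set II. The gonadotrope sum and the somatotrope and lactotrope sum split by spike-in class. A difference between the cultures and a difference between the arrays therefore cannot be told apart. In such mixed cultures, fewer cells of a type and less RNA per cell cannot be told apart either.

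Among the 6 members with the brightest probe sets in vehicle, the RAB GTPases were of the recycling, Golgi and late endosomal classes. None was of the granule class. By mean vehicle signal the order began with Rab14, Rab11b, Rab3gap1, Rab2a, Rab7a and Rab5if, of which Rab3gap1 and Rab5if encode no RAB GTPase. Rab14, which acts between the Golgi and endosomes, had a vehicle signal of 2529 at the lowest, 5785 at the median and 13052 at the highest (n = 6). Rab11b, a marker of recycling endosomes, spanned 3288, 6550 and 9103 in the same terms. Rab7a, which directs late endosomes to lysosomes, spanned 1562, 6289 and 10451. The median percentile of these 3 among all non-control probe sets was 98.5 to 98.7, so each lay near the top of the array.

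Rab2a, which works at the Golgi, had signals of 971, 7458 and 12457. Rab3gap1, the catalytic subunit of a RAB3 GTPase-activating protein, had 2046, 7210 and 9851, and Rab5if had 1285, 4002 and 6702. The lowest of the 6 values was vehicle 3 in each of these 6 genes. Their ranges overlap widely, so the order among them does not exceed the spread over arrays. Probe sets also differ in affinity, so the order is one of probe set signals and not of transcripts.

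**Figure D1:**
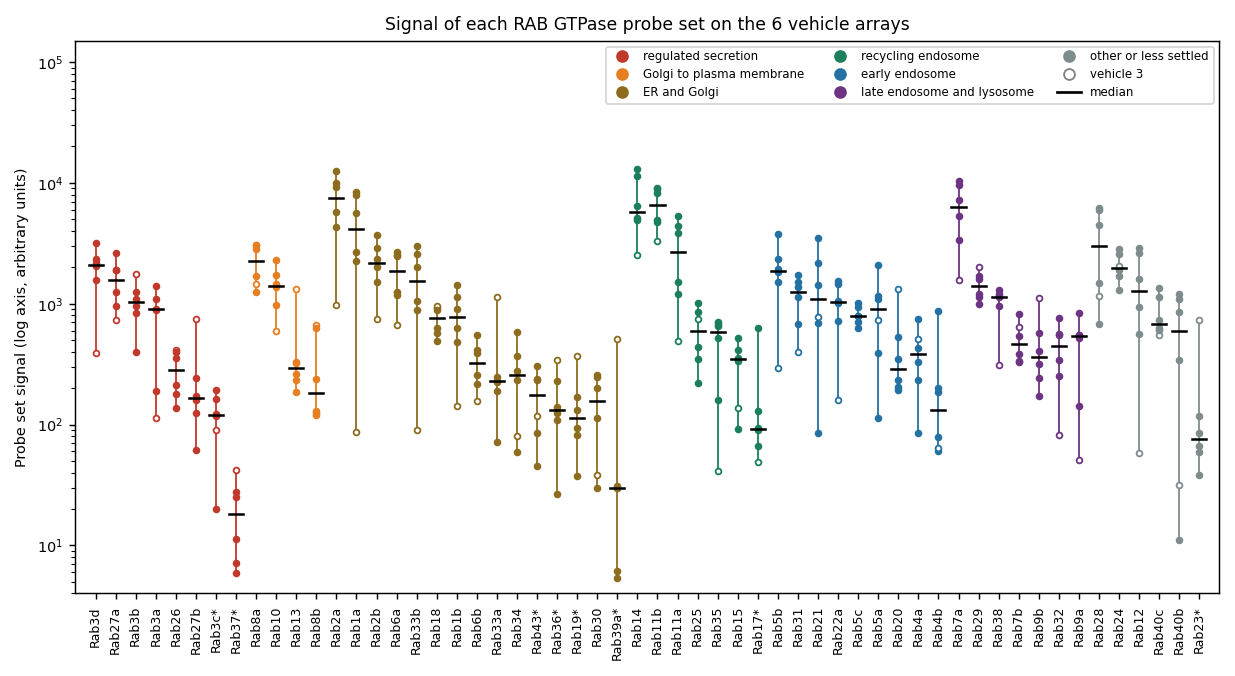
Signal of the chosen probe set of each of the 56 RAB GTPases on the 6 vehicle arrays (log axis), grouped by role; bars join the lowest and highest value, black marks are medians, open points are vehicle 3, and an asterisk marks a gene left out of testing by the filter. The vehicle 3 point lies at an end of many ranges, as for Rab1a at 86.5.

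Granule RABs ranged from bright to below the background controls. Rab3d, one of the RAB3 proteins of secretory granules, had 391.6, 2107 and 3162 as its lowest, median and highest vehicle signal. Rab27a, which docks granules, had 732, 1562 and 2650, Rab3b had 401, 1028 and 1754, and Rab3a, the main RAB3 protein of synaptic vesicles, had 113, 899 and 1405. Rab26 had a median of 283 and Rab27b one of 166, and both lay near the middle of the array, with median percentiles of 53.5 and 43.8. Rab3c had a median of 120 and Rab37 one of 18.3. These last 2 did not pass the filter on dim probe sets. The signal of Rab37 was below the background controls on 10 of the 12 arrays, and that of Rab3c on 6.

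The textbook compartment markers were all measured. Rab1a, which controls transport from the endoplasmic reticulum to the Golgi, had 86.5, 4143 and 8347, the largest spread of these markers. Rab11a had 495, 2675 and 5277, Rab8a, which carries cargo from the Golgi to the plasma membrane, had 1250, 2275 and 3088, and Rab6a, of the Golgi, had 662, 1863 and 2683. Rab5a, the early endosome RAB, had 112, 909 and 2083. By mean vehicle signal the 4 dimmest members were Rab37, Rab39a, Rab11fip2 and Rab3c, with medians of 18.3 to 144, and each lay below the background controls on at least 6 arrays.

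In all, 56 of the 66 members passed the filter, 48 of them GTPases. By role these were 6 of 8 for regulated secretion, 4 of 4 for Golgi to plasma membrane, 11 of 15 for endoplasmic reticulum and Golgi, 9 of 9 for early endosomes, 6 of 7 for recycling endosomes, 7 of 7 for late endosomes and lysosomes, and 5 of 6 for other roles. The filter used all 12 arrays and no group.

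GnRH against vehicle asks which RAB transcripts moved within 40 min. No RAB gene was called. Of all 18625 probe sets tested, limma called 1 at an adjusted p under 0.05, which is 0.00537%: Fosb, an immediate early gene, was higher by 2.29 on the log2 scale (adjusted p = 0.0411). Of the 56 tested members, 0 were called and 0 had an unadjusted p under 0.05, against 643 of all 18625. The smallest adjusted p of a member was 0.981. The labels call the samples biological replicates, but samples of one set share a cell preparation and nothing says that they were separate cultures. The p-values therefore measure only the spread between these samples.

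In direction, 37 of 56 members were higher in GnRH, or 66.1%, against 53.6% of all tested probe sets. The median difference of the members was 0.16 on the log2 scale, against 0.039 for all tested probe sets. Without vehicle 3 the lean was not seen: the members' median was -0.0081, 27 were higher, and the median of all probe sets was -0.025. Within sets the members' median was 0.036 (I), 0.64 (II, which holds vehicle 3) and -0.091 (III).

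The member with the smallest p was Rab11fip4, an effector of RAB11. Its vehicle signals were 47.1 at the lowest, 456 at the median and 881 at the highest, and its GnRH signals were 412, 625.2 and 1063. The groups overlapped, and the difference was 0.96 with a standard error (SE) of 0.45 (limma, n = 12 arrays, p = 0.0504, adjusted p = 0.981). Set by set it was -0.049 (I), 2.34 (II) and 0.58 (III). Without vehicle 3 the difference was 0.56.

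Among members with a role in granule release, Rab3b had the smallest p. Vehicle signals of Rab3b were 401, 1028 and 1754, and GnRH signals were 297, 684 and 1206, with overlap. The difference was -0.63 (SE 0.37, 95% interval -1.41 to 0.16, limma, n = 12 arrays, p = 0.11, adjusted p = 0.981), and it was negative in all 3 sets, at -0.18, -1.56 and -0.14. Rab27a had GnRH signals of 1186, 1770 and 2621, and a difference of 0.36 (95% interval -0.19 to 0.91). For Rab3a it was 0.38 (-0.61 to 1.36), for Rab3d 0.067 (-0.72 to 0.85), for Rab26 -0.50 (-1.59 to 0.58) and for Rab27b 0.35 (-0.95 to 1.64). So 4 of the 6 tested granule RABs were higher and 2 lower, and every interval held 0. Each interval reaches past 0.8 on at least one side, so it does not exclude a difference of that size. Without vehicle 3 the tally was 3 higher and 3 lower and the median went from 0.21 to -0.14, with Rab3a at 0.041, Rab3d at -0.32 and Rab27b at 0.76.

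Early secretory and Golgi RABs had the widest spread of differences. Rab1a had GnRH signals of 1501, 5674 and 9790, and its difference of 1.09 (SE 0.72, limma, n = 12 arrays, p = 0.148, adjusted p = 0.981) was the largest of all members. Rab6b, a close relative of Rab6a, had vehicle signals of 156, 323 and 556 and GnRH signals of 44.4, 200 and 371. Its difference of -0.91 (SE 0.57, limma, n = 12 arrays, p = 0.131) was the lowest. For Rab1a the value was 0.53 (set I), 3.44 (set II) and -0.70 (set III), and 0.21 when vehicle 3 was left out. The chosen Rab6b probe set was lower in all 3 sets, at -0.34, -1.33 and -1.05, while a second tested Rab6b probe set had a difference of 0.018. Of the 11 tested members of this role 9 were higher and 2 lower, with a median of 0.29, or 0.021 without vehicle 3.

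The other transport roles had medians on both sides of 0. Recycling RABs were higher in 5 of 6 (median 0.21), early endosome RABs in 6 of 9 (0.17), late endosome RABs in 2 of 7 (-0.088) and Golgi to plasma membrane RABs in 2 of 4 (-0.0041). Rab7a had a difference of 0.52 (95% interval -0.26 to 1.30), Rab11a 0.48 (-0.34 to 1.31), Rab5a 0.36 (-0.70 to 1.42), Rab8a 0.13 (-0.38 to 0.64) and Rab6a 0.080 (-0.53 to 0.69). None of these intervals excludes 0. Without vehicle 3 the medians were 0.042 (recycling), -0.098 (early), -0.21 (late) and -0.0082 (Golgi to plasma membrane), so that of the early endosome RABs turned negative. The lowest difference among these roles was that of Rab9b, at -0.80 (SE 0.63).

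A difference of one sign in all 3 sets was seen in the chosen probe set of 13 tested members. Higher in each set were 8, or 14.3% of 56, against 12.6% of all tested probe sets: Rab11b, Rab7a, Rab5a, Rab1b, Rab27b, Rab30, Rab3gap1 and Rab5if. Lower in each set were 5, or 8.93%, against 11.4%: Rab24, Rab29, Rab3b, Rab6b and Rab11fip3. Both shares lay near those of the whole array. Other tested probe sets of a gene need not share the sign: those of Rab1b had differences of 0.23, -0.12 and -0.81. Rab24, a RAB linked to autophagy, had a difference of -0.44 (SE 0.27, limma, n = 12 arrays, p = 0.129), with vehicle signals of 1298, 1978 and 2830 and GnRH signals of 782, 1563 and 2104. Rab3gap1 had a difference of 0.51 (limma, n = 12 arrays, p = 0.0999) and Rab5if one of 0.47 (limma, n = 12 arrays, p = 0.10). Without vehicle 3 these were 0.28 and 0.25, while Rab24 stood at -0.45.

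**Figure D2:**
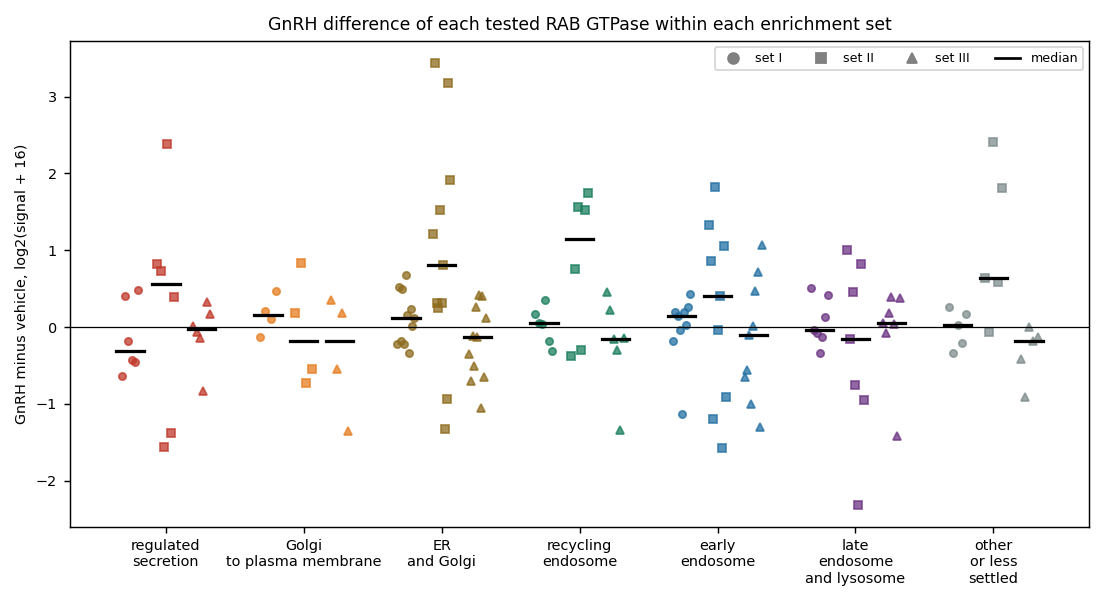
GnRH minus vehicle difference in log2(signal + 16) of each of the 48 tested RAB GTPases within each enrichment set (2 arrays of each agent), grouped by role; circles, squares and triangles are sets I, II and III, and black marks are medians. Set II differences spread widest, from -2.31 for Rab9b to 3.44 for Rab1a.

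The study's own rule calls a gene up when it reaches a fold of 1.50 with concordance in pairwise comparisons. Applied to signal plus 16, with 18 of 36 pairs required, it took 4 of the 56 members as up, or 7.14%, against 7.62% of all tested probe sets: Rab1a, Rab30, Rab34 and Rab11fip4. It took 3 as down, or 5.36%, against 7.60%: Rab3b, Rab6b and Rab9b. The members' shares did not exceed the background in either direction. This rule has no error term, and none of the 7 passed the limma test.

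Secretory RABs (regulated secretion and Golgi to plasma membrane) did not part from endosomal ones after GnRH. The median difference was 0.10 over 10 secretory genes and 0.044 over 22 endosomal ones, a gap of 0.057. The sign of this gap changed under several alternative settings, with values from -0.16 (without vehicle 4) to 0.20 (quantile normalization). On each array the mean deviation of the secretory genes from their own means, minus that of the endosomal genes, was taken as an index on the log2 scale. The index was -0.32 at the lowest, -0.27 at the median and 0.80 at the highest in vehicle, and -0.43, -0.080 and 0.38 in GnRH (n = 6 each). The groups overlapped, with an SD within agent of 0.42. The mean of the index was 0.032 in vehicle and -0.032 in GnRH, both small beside that SD. The index is a mean per array, and it leaned the other way from the gap of medians.

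The index did move with the spike-in level. It lay between -0.43 and -0.24 on the 5 low spike-in arrays, vehicle 5 of set III among them at -0.31. On the 7 high arrays it ran from -0.26 to 0.80, with 5 of them above 0. The median ratio of low to high arrays was 0.745 for secretory genes, 1.15 for endosomal genes and 1.01 for all tested probe sets. Roles within a class were not alike. The ratio was 0.97 for regulated secretion and 0.61 for Golgi to plasma membrane. It was 1.77 for recycling, 1.25 for early and 0.85 for late endosome RABs. The part of array quality in this was not tested.

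**Figure D3:**
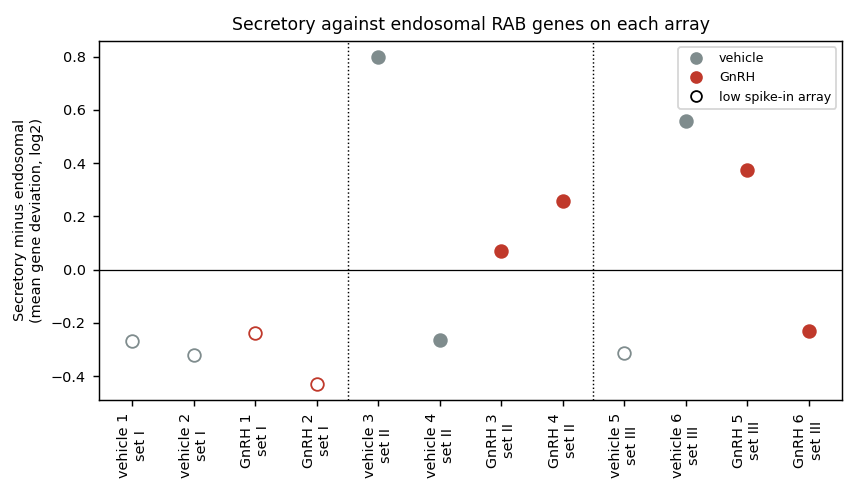
Secretory minus endosomal index (mean deviation of each gene from its 12-array mean, log2) on every array, ordered by enrichment set; grey is vehicle, red is GnRH, and open points are arrays with a low spike-in signal. Low arrays sit between -0.43 and -0.24, and vehicle 3 is highest at 0.80.

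More probe sets were called between enrichment sets than between agents. Vehicle 5 was the only low spike-in array outside set I, so preparation and spike-in level are poorly separated, with or without a covariate. Of the 56 members, limma's F test called 3 between enrichment sets, or 5.36%, against 6.02% of all tested probe sets. At an unadjusted p under 0.05 there were 20, or 35.7%, against 27.8%. The called members were Rab14, Rab6a and Rab8a, and a share this near the background is no result about RAB genes as a group.

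Rab14 signals in set I were 13052, 11366, 11302 and 16682. Set II gave 2529, 6441, 4708 and 2047, and set III gave 5128, 4957, 5028 and 9470. Every set I array was above every array of the other sets. The log2 difference from set I was -1.86 for set II and -1.13 for set III (SE 0.38 each, limma adjusted p = 0.0244). Another tested Rab14 probe set gave -0.82 and -0.84 (limma adjusted p = 0.271). The dimmest tested Rab14 probe set had the other sign, at 0.35 and 0.37 (limma adjusted p = 0.764).

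Rab6a followed the order of the chosen Rab14 probe set. Set I gave 2683, 2473, 3628 and 3654, set II gave 662, 1254, 848 and 1384, and set III gave 2541, 1172, 1027 and 1438. The high value of set III was vehicle 5, the low spike-in array of that set, which overlapped set I. The differences from set I were -1.61 and -1.07 (SE 0.35, limma adjusted p = 0.0329).

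Rab8a went the other way. Set I gave 1250, 1709, 1330 and 1334, set II gave 1459, 3088, 2598 and 2238, and set III gave 3075, 2841, 3841 and 3725. Vehicle 3 alone of the other sets fell into the set I range, and vehicle 5 lay with the rest of set III. The differences from set I were 0.69 and 1.25 (SE 0.30, limma adjusted p = 0.0445).

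With the spike-in level as a covariate none of the 3 was called, with adjusted p of 0.275 for Rab14, 0.618 for Rab6a and 0.211 for Rab8a, and the share of all probe sets called went from 6.02% to 0.14%. The differences of sets II and III from set I were then -1.99 (SE 0.54) and -1.20 (SE 0.44) for Rab14, and 0.77 (SE 0.42) and 1.30 (SE 0.33) for Rab8a, close to those without the covariate. For Rab6a they were smaller, at -0.78 (SE 0.43) and -0.59 (SE 0.34). No member was called without vehicle 1, vehicle 2, GnRH 1 or GnRH 2, each of which leaves 3 arrays in set I, and the share of all probe sets was then 0.682 to 2.01%. Without vehicle 5 the call count was 8 (14.3%), and the share of all probe sets was 12.5%. It was 6 (10.7%) without vehicle 3, against 8.85% of all probe sets, and 6 without vehicle 4, against 5.09%. It was 2 (3.57%) without GnRH 5 or GnRH 6, against 6.11% and 5.41%, and 1 (1.79%) without GnRH 3 (Rab14) or GnRH 4 (Rab6a), against 4.26% and 4.32%. Rab33b (limma adjusted p = 0.0506) and Rab28 (0.0534) came next and missed the threshold. The summed gonadotrope markers did not overlap between low and high spike-in arrays, and set I alone had GAPDH ratios above 4.4, while vehicle 5 had a low spike-in level and a ratio of 3.73. The parts of the marker sums and of the ratio in these differences were not tested.

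**Figure D4:**
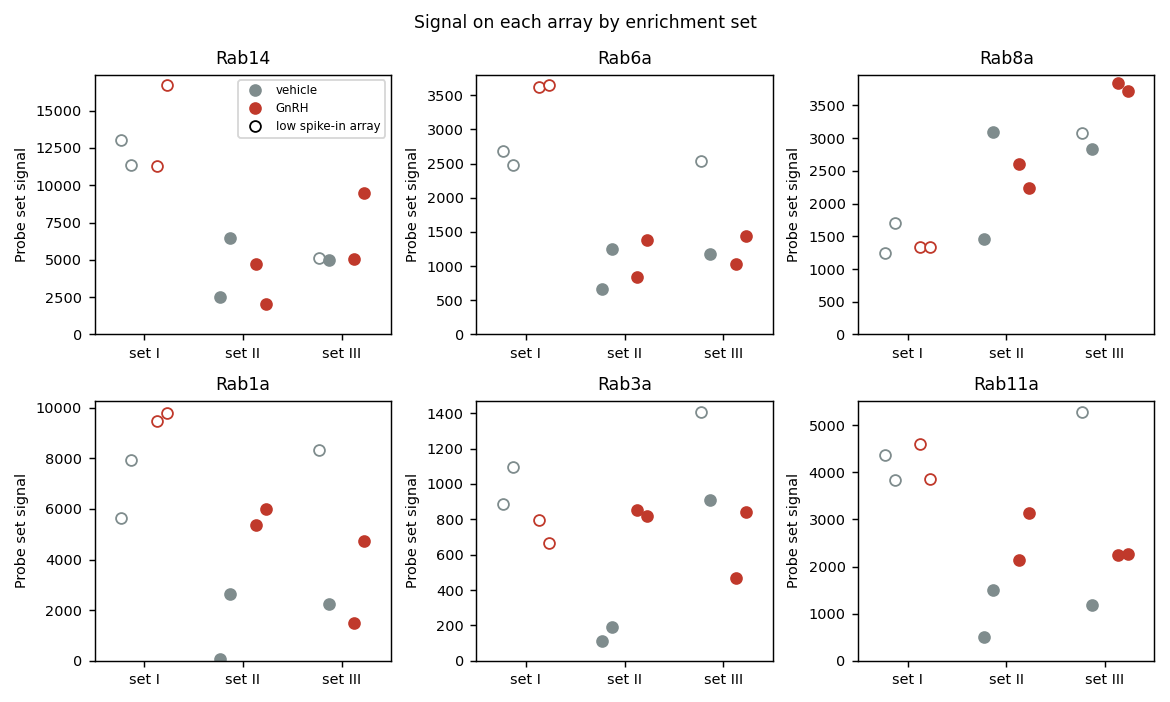
Signal of 6 RAB genes on every array by enrichment set; grey is vehicle, red is GnRH, and open points are low spike-in arrays. Rab14 is high in all 4 set I arrays, while in Rab6a, Rab1a and Rab11a the open point of set III (vehicle 5) lies apart from its set, at 2541, 8347 and 5277.

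Vehicle 5 was the one low spike-in array outside set I. It lay with set III for Rab14 (5128) and Rab8a (3075), and with the low arrays of set I for Rab6a. Signals on the 5 low arrays did not overlap those on the 7 high ones in 10 of the 56 tested members. Higher on the low arrays were 9, or 16.1%, against 6.75% of all tested probe sets: Rab2a, Rab5a, Rab6a, Rab9a, Rab11a, Rab21, Rab28, Rab31 and Rab40b. Higher on the high arrays was 1, Rab25, an epithelial relative of RAB11, or 1.79% against 3.54%. Members were read by their brightest probe set and the background over all tested ones, so these shares are not like for like. Second tested probe sets of Rab2a and Rab11a also had ratios of low to high arrays above 1, at 2.44 and 3.12. Those of Rab6a (0.46) and Rab31 (0.69) went the other way, as did untested dim ones of Rab5a (0.37) and Rab40b (0.32).

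Rab11a gave 4365, 3845, 5277, 4592 and 3851 on the low arrays and 495 to 3136 on the high ones. Rab28 gave 4485 to 7694 on the low arrays and 685 to 2154 on the high ones. Rab1a, with 5632 to 9790 against 86.5 to 5985, overlapped through GnRH 4 alone. The median SD of a member was 0.35 on the low arrays and 0.99 on the high ones, against 0.37 and 1.01 for all tested probe sets. On the low arrays 1 or 2 of the 56 GTPases fell below the background controls, and on the high ones 3 to 19, the most on vehicle 3. Of all probe sets, 8.52 to 12.85% fell below them on the low arrays and 18.5 to 40.4% on the high ones. The controls themselves read 14.8 to 22.4 on the low arrays and 52.8 to 183 on the high ones. The member counts therefore follow the array and are no result about RAB genes. By the median SD, RAB signals spread less across the low arrays, as did those of other genes. The low arrays were mostly of set I, while the high ones came from sets II and III and included vehicle 3. The SDs were taken across arrays without removing the set. Differences between preparations and the spread of measurement therefore cannot be told apart in them.

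**Figure D5:**
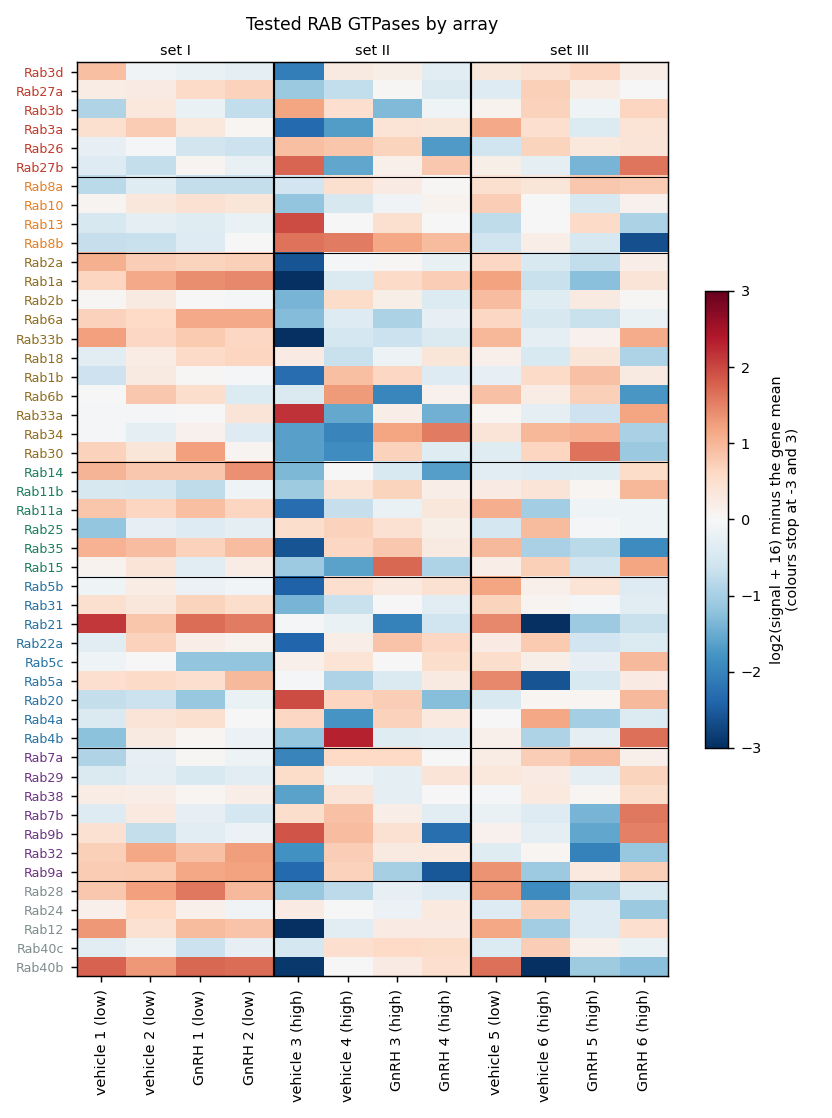
Deviation of log2(signal + 16) from the gene's mean over 12 arrays for the 48 tested RAB GTPases, grouped by role and coloured by it in the gene names; columns are arrays by enrichment set, with the spike-in class in brackets. Vehicle 3 is the most deviant column, and the vehicle 5 column resembles set I in genes such as Rab28 and Rab40b.

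Whether the GnRH response differed between preparations was tested directly. Of the 56 members 0 were called, as were 0.00% of all probe sets. At an unadjusted p under 0.05 there were 3 members, or 5.36%, against 5.36% of all probe sets (999 of 18625). The smallest p was that of Rab3a (limma, n = 12 arrays, p = 0.00179, adjusted p = 0.777). Rab3a vehicle signals were 888 and 1097 in set I, 113 and 189 in set II, and 1405 and 910 in set III. GnRH signals were 796 and 665, then 850 and 817, then 470 and 844. On the chosen probe set GnRH lay below vehicle in sets I and III and above it in set II, without overlap within any set. The set differences were -0.43, 2.39 and -0.83. A second tested Rab3a probe set, dimmer, overlapped in sets II and III. It gave 55.6 and 454 in vehicle against 387 and 38.3 in GnRH in set II. In set III it gave 151 and 545 against 658.5 and 303.

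Rab34 (limma, n = 12 arrays, p = 0.00903) and Rab22a (limma, n = 12 arrays, p = 0.0361) followed, with adjusted p of 0.834 and 0.924, and then Rab1a and Rab11fip4, neither under 0.05. Their differences were 0.013, 3.18 and -0.65 for Rab34 in sets I, II and III, and -0.037, 1.83 and -1.01 for Rab22a. In each case the set II value was the large one. A second tested Rab34 probe set gave 865 and 422 in vehicle and 46.4 and 852 in GnRH in set II. With vehicle 4 left out, vehicle 3 alone stands for vehicle in set II and is assumed to vary like the other groups, so its own deviation enters as a response. In that fit 6 members were called (10.7%, against 4.38% of all probe sets): Rab12, Rab1a, Rab22a, Rab3a, Rab3ip and Rab5b. Rab3a was below the background controls on vehicle 3, as was Rab22a, and Rab34 was below on vehicle 3 and vehicle 4.

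Different probe sets of a RAB gene often went different ways. Of the 110 probe sets 83 were tested, and 20 genes had more than 1. In 6 of these 20 the probe sets shared the sign of the GnRH difference, and in 8 the sign of set II minus set I. The matching share over other genes with several tested probe sets was not counted, so this is not particular to RAB genes. A second Rab6a probe set read 115 to 146 in set I, 559 to 1337 in set II and 18.3 to 540 in set III, so that set II lay above set I, where the chosen one had it below (limma adjusted p = 0.032 between sets). The chosen probe set was the brighter by rule. Of all 83 tested probe sets 7 were called between sets, or 8.43% against 6.02% of the whole array, those of Rab14, Rab2a, Rab2b, Rab6a (both of its probe sets), Rab8a and Rab8b. An unadjusted GnRH p under 0.05 was reached by 2 of the 83, or 2.41% against 3.45% of all, second probe sets of Rab6a (difference -1.20) and Rab8b (-1.09). Neither was called (limma adjusted p = 0.981 for both).

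The machinery that acts on RAB proteins was read from 6 lists with 127 entries, of which 111 were on the array and 91 were tested. Some entries, such as Rab3gap1 and Rab11fip4, are also members above. For GnRH 0 were called, 49 were higher and 42 lower, with a median of 0.035, against 0.039 for all tested probe sets. At an unadjusted p under 0.05 there were 3, or 3.30%, no more than the 3.45% of all probe sets. Rin1, a RAB5 exchange factor that binds RAS, had vehicle signals of 33.5, 98.5 and 310.9 and GnRH signals of 171.8, 207 and 731. The groups overlapped, and the difference was 1.36 (SE 0.54, limma, n = 12 arrays, p = 0.0216, adjusted p = 0.981). Sgsm1, a RAB GTPase-activating protein, had 1123, 2789 and 4177 against 1200, 1363 and 2248, a difference of -0.69 (limma, n = 12 arrays, p = 0.0244). Plin3, known as a RAB9 effector and lipid droplet coat protein, had 50.6, 380 and 634 against 411, 582 and 1004, a difference of 1.18 (limma, n = 12 arrays, p = 0.0286). The last was 3.10 in set II and 0.23 and 0.21 in the others.

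By list, exchange factors were higher in 11 of 19 and GTPase-activating proteins in 11 of 24. Dennd5a, an exchange factor, had a difference of 0.63 (limma, n = 12 arrays, p = 0.0713), and Rabgap1, a GTPase-activating protein, 0.72 (limma, n = 12 arrays, p = 0.0558). Prenylation and GDI genes were higher in 4 of 5, with Rabac1, which binds prenylated RABs, at -0.44 and Gdi2, a GDP dissociation inhibitor, at 0.50. Effectors of RAB3 and RAB27 were higher in 3 of 5, with 13 of the 14 listed on the array and 8 of these too dim to test. Of them Rph3al (noc2), an effector in granule release, stood at 0.27 and Sytl1 at -0.54. Endosomal effectors were higher in 12 of 22, and Golgi and other effectors in 8 of 16, with Golga2, a Golgi matrix protein, at -0.52 and Exoc2, of the exocyst, at 0.64. None of these passed the test.

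Between sets, 7 of the 91 tested were called, or 7.69%, near the 6.02% of all probe sets. Golga4 and Uso1, both Golgi tethering proteins, were lower in sets II and III than in set I. Golga4 gave 6747 to 8749 in set I, 1642 to 3988 in set II and 1769 to 4180 in set III (limma adjusted p = 0.0215). Uso1 gave 3537 to 4096, 1216 to 1589 and 1441 to 2713 (limma adjusted p = 0.0249). Rabac1 was higher there, at 1308 to 2692 in set I, 4493 to 5710 in set II and 2893 to 9085 in set III (limma adjusted p = 0.0249). The other called genes were Madd, Tbc1d23 and Myo5a, lower in both sets, and Exoc6b, higher in both. These 7 were chosen after their values were seen.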

How the data were processed

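Signal intensity values of 12 Affymetrix rat arrays were used as the authors deposited them in 1 table, computed with GCOS per the submitters' processing notes. The GCOS version was not given in the sources used here. Per the labels, set I no longer has its scanner files. Signals were brought to a common trimmed mean of 500 per array (2% cut at each end), and log2(signal + 16) was taken. Of 31042 non-control probe sets, those with a mean at or above the 40th percentile, 18625, were tested. Models were fitted with limma 3.58.1 (R 4.3.3) with terms for enrichment set and agent and an intensity trend. Moderated F tests compared sets and the set by agent interaction, with Benjamini-Hochberg adjustment at 0.05 over all tested probe sets. The pipeline was tested on simulated data.

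Members and lists were chosen with earlier results of these data known. Named genes were those called in any test, the 5 smallest p in each test, the 6 brightest and 4 dimmest in vehicle, all granule RABs, those of one sign in all 3 sets, 6 textbook markers, up to 2 genes per machinery list, and Fosb. Other genes named beside a count were named after their values were seen. Gene names came from the platform annotation, and all 66 member symbols matched the RefSeq table. Precision is limited by the number of arrays. It may also be limited by the larger spread across arrays with a high spike-in signal, which came from sets II and III only. Alternatives were other offsets, filters, normalizations, weights, covariates and left-out arrays.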

Additional observations from a re-analysis of the deposited data

Results flagged for a closer look

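In groups of 6 arrays, 10 of 112 held a sample far from the other 5. A rate of about 1 in 20 holds for 6 draws from a single normal spread. These groups mixed 3 preparations and both spike-in classes and shared the same arrays, so that rate is no measure of chance here. The rule was not run on other genes. Vehicle 3 stood apart over the whole array, with 40.4% of all probe sets below the background controls. In 8 of the 10 the sample was vehicle 3, the lowest of its group in 7. Vehicle 3 read 86.5 for Rab1a, where the other vehicle arrays began at 2260. It read 159 for Rab22a, 89.7 for Rab33b, 313 for Rab38, 391.6 for Rab3d, 40.1 for Rab3ip and 295 for Rab5b, each below all others. For Rab13 it was the highest, at 1324 against 186 to 332. GnRH 4 was lowest for Rab3gap2 at 77.1, and GnRH 6 highest for Rab4b at 545.

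In 4 members the chosen probe set had both GnRH arrays of a set above both vehicle arrays, and in another set both below. How many of all tested probe sets did so was not counted, so the 4 are no result about RAB genes as a group. For Rab3a, above in set II and below in I and III, the interaction test gave an unadjusted p of 0.00179 (adjusted 0.777). For Rab22a, above in II and below in III, it gave 0.0361 (adjusted 0.924). For Rab31, above in I and II and below in III, it gave 0.125, and for Rab8b, above in I and below in II, 0.338. None passed the adjusted threshold in limma.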

How the results depend on the processing

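The count of RAB genes called for GnRH against vehicle was 0 under every alternative run, as it was for the machinery lists, and with the replicate block, where the secretory minus endosomal gap was 0.057. Same-numbered samples did not deviate together (correlations -0.029, -0.026 and -0.14 by set), so the numbers were not taken as pairs. The secretory minus endosomal gap stayed within 0.42 of its reported value under all alternatives, while its sign varied. That 0.42 is the SD of the index per array, a different measure and far wider than the gap. The check could hardly be failed and says little about stability. The count called between sets, 3 as reported, was 7 with an offset of 64 (8.75% of all probe sets called), 5 with no filter (4.93%), 1 after quantile normalization (3.42%), 0 without the intensity trend (2.70%), 16 with array weights (24.3%) and 0 with the spike-in covariate (0.14%), against 6.02% as reported. With 1 array left out at a time, the range was 0 to 8. Chosen after seeing the data, leaving out vehicle 3 and 5 gave 17 (20.4%), and counting any tested probe set of a gene gave 6. The count for a response that differs between sets, 0 as reported, was 0 to 6 with each array left out, the 6 without vehicle 4. Of the 56 tested members, 25 kept the sign of their GnRH difference whichever array was left out, and 9 under all alternatives. Tests between sets and of the interaction were not run with the replicate block, and the interaction was not run with the spike-in covariate.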
